A study of Mus musculus with 9 samples.

Results

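The genes described here encode the enzymes with which the olfactory mucosa takes up, modifies and clears foreign chemicals. They were chosen by symbol and by level. A symbol had to start with Cyp1 to Cyp4 and a letter, Ugt, Gst, Fmo, Ces or Sult as these families are written in mouse, and the gene had to reach 90 expected counts summed over the 9 mice. Of the 55291 genes measured, 215 had such a symbol and 82 reached the level. The 82 genes comprised 30 cytochromes P450, 7 UDP-glucuronosyltransferases, 21 glutathione S-transferases, 6 flavin-containing monooxygenases, 9 carboxylesterases and 9 sulfotransferases. Of them, 80 were annotated as protein coding and 2, Cyp2a21-ps and Gstm2-ps1, as pseudogenes. The other 133 symbols did not enter, 82 with 0 counts in every mouse and 51 with some counts below the limit.

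The tissue was the main olfactory epithelium, dissected at 8 to 12 weeks of age from 9 mice, 3 per genotype, and read by bulk RNA-seq. Wild-type mice were labelled C57BL/6 and described as littermate controls, without the line they came from. Ms4a6c knockout mice, made by KOMP through homologous recombination, lacked 1 member of the Ms4a family of candidate odorant receptors, and Ms4a cluster knockout mice, made with CRISPR/Cas9, lacked the gene cluster. No treatment of these mice and no restriction of either deletion to a cell type is given in the sources used here. The same 3 wild-type mice were the controls of both lines, so that the comparisons with wild type are not independent. The RNA came from whole tissue, in which fewer cells of a type and less RNA per cell cannot be told apart.

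Xenobiotic metabolism runs in 2 stages. Cytochromes P450, flavin-containing monooxygenases and carboxylesterases first oxidize or hydrolyze a lipophilic compound, and transferases then attach a glucuronic acid, glutathione or sulfate group that makes it soluble. In the nose these enzymes are made mainly in the sustentacular cells, which ensheath the sensory neurons, and in the Bowman glands beneath them. They protect the neurons from inhaled toxicants and also convert and clear odorants.

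The libraries held from about 13954600 to 21987200 expected counts. Levels are given as CPM, counts scaled by TMM to libraries of 1000000, and, where genes are compared with each other, as CPM per kb of the longest annotated transcript. Ms4a6c was at 54.0, 90.3 and 81.5 counts in the wild-type mice, at 0, 2.35 and 2 in the Ms4a6c knockout mice and at 0 in every Ms4a cluster knockout mouse. Wild-type replicate 1 and Ms4a cluster knockout replicate 2 stood apart from the rest: a list of nasal gland transcripts took 21.4% and 23.1% of these libraries, against 0.039% to 3.54% of the other 7. The 82 enzyme genes took 2.04% and 1.96% of these gland-rich libraries and 3.20% to 3.92% of the other 7 before TMM scaling. In 4 libraries, wild-type replicate 1, Ms4a6c knockout replicates 2 and 3 and Ms4a cluster knockout replicate 3, Xist was at most 2.61 CPM, against 247 CPM or more in the others, as in males and females. Of the marker lists of sustentacular cells, Bowman glands and mature sensory neurons, 8 of 8, 5 of 5 and 7 of 7 genes had 90 counts or more. Of 4 liver markers, none reached 90 counts, Cyp7a1 was at 0 and Alb had 2 counts in all.

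A few enzymes made up most of the expression. In wild-type mice Cyp2a5, the P450 known for the hydroxylation of coumarin and the activation of nasal toxicants, was at 4556 ± 44.0 CPM per kb (SD, n = 3). It was followed by Cyp2g1, a P450 known almost exclusively from olfactory mucosa, at 2431 ± 31.8 CPM per kb, and by Ugt2a1, the olfactory UDP-glucuronosyltransferase that conjugates odorants, at 2212 ± 68.5. Cyp2f2, the P450 that activates naphthalene in airway epithelium, was at 1380 ± 139 CPM per kb. The ranges of these 4 genes over the wild-type mice did not overlap. Gstm1, a cytosolic glutathione S-transferase, came next at 791 ± 59.1 CPM per kb, then the sulfotransferase Sult1c1 at 420 ± 50.9 and the carboxylesterase Ces1d at 323 ± 11.2. From Gstm2 at 266 ± 8.72 CPM per kb through Ugt2a2, Cyp1a2, Sult1d1 and Gsta4 to Fmo6 at 144 ± 11.2, each gene overlapped its neighbor in this order. Gstm5 at 121 ± 3.14 and Cyp4b1 at 69.7 ± 9.33 CPM per kb completed the 15 highest. With the median in place of the longest transcript length, Cyp2f2 stood above Ugt2a1, and Fmo2 replaced Cyp4b1 among the 15.

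**Figure D1:**
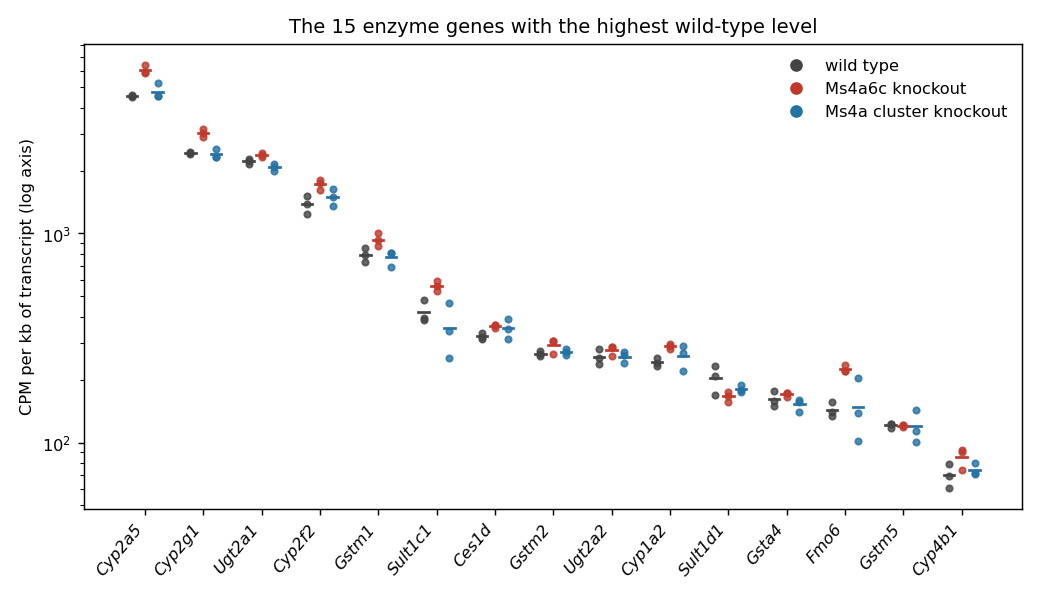
CPM per kb of transcript (log axis) of the 15 enzyme genes with the highest wild-type level; each point is a mouse and each line the mean of 3 mice of a genotype. Levels ran from 4556 CPM per kb for Cyp2a5 to 69.7 for Cyp4b1 in wild-type mice, and the order of the leading 4 was the same in each genotype.

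The highest level was 329-fold the median of 13.8 CPM per kb over the 82 genes, and Cyp4x1 had the lowest at 0.183 CPM per kb. By counts, Cyp2a5 alone took 31.4% of the expression of the 82 genes in wild-type mice. The share was between 31.0% and 35.1% in the 9 mice. Cyp2a5, Ugt2a1, Cyp2g1 and Cyp2f2 together took 75.5% in wild-type mice and between 74.9% and 77.1% in the 9. The 10 most abundant genes took 88.9% in wild-type mice, so that the remaining 72 shared the rest. These levels follow from the count limit and are given as a description. At the limit itself, Fmo4 with 95 counts, Ces1b with 99 and Gstm2-ps1 with 132 were just inside, and Ugt1a8 with 86.0, Cyp4a12a with 82.9 and Cyp2w1 with 79 were just outside.

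The stretches upstream of leading members, and of the Cyp1a genes as members of the classical inducible pair, are printed here to show the sequence from which they are transcribed. They were taken from RefSeq (GRCm38.p6), cover the 250 bases before the annotated start and run 5′ to 3′ on the strand of the gene. Of the 82 genes, 64 had an entry. Capitals mark 3 motifs searched on both strands: TATAAA, the core of a TATA box, GCGTG, the core bound by the aryl hydrocarbon receptor with its partner, and TTGGCA, a core of the sites of nuclear factor I, a family of factors studied at nasal Cyp2a genes. The windows lie at chr7:26835089-26835338 on the plus strand for Cyp2a5, chr7:27119705-27119954 on the plus strand for Cyp2f2, chr5:87490872-87491121 on the minus strand for Ugt2a1, chr5:87482259-87482508 on the minus strand for Ugt2a2, chr9:57683656-57683905 on the minus strand for Cyp1a2 and chr9:57697363-57697612 on the plus strand for Cyp1a1.
Cyp2a5: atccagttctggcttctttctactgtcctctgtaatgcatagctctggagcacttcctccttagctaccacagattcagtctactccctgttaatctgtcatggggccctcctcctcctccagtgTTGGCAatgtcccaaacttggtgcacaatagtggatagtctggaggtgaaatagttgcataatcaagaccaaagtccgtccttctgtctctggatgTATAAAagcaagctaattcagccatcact
Cyp2f2: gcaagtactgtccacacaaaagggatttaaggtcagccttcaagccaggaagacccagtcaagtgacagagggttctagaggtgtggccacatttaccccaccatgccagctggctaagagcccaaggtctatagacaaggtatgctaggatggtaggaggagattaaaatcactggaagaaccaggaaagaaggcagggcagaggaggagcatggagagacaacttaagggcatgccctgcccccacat
Ugt2a1: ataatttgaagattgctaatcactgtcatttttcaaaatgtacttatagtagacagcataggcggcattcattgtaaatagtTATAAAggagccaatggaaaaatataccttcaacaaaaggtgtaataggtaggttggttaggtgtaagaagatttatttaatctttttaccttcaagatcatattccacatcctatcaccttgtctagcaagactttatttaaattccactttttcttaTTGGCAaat
Ugt2a2: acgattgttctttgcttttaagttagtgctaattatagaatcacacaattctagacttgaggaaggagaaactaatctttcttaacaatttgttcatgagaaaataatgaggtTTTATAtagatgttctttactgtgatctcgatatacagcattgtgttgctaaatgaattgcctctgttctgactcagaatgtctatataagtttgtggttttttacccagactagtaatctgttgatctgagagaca
Cyp1a2: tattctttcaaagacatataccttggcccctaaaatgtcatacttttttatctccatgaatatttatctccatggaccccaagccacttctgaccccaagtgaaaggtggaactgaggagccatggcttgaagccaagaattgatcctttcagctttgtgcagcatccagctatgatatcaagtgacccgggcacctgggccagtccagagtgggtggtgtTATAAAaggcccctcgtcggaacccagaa
Cyp1a1: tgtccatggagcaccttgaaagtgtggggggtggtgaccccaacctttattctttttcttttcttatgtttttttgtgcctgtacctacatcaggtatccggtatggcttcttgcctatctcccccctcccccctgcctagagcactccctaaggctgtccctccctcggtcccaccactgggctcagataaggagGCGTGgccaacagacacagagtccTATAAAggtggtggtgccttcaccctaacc
In Cyp2a5, TATAAA began at position -29 from the start and TTGGCA at -125. In Cyp1a2 and Cyp1a1, TATAAA began at -29 and -30, and Cyp1a1 also held GCGTG at -54. In Ugt2a1, TATAAA lay at -168 and TTGGCA at -9, and in Ugt2a2 the marked letters are TATAAA on the other strand. The Cyp2f2 window held none of the 3 motifs. None of the matches printed overlapped another. TATAAA occurred in 12 of the 64 windows, or 18.8%, against 13.0% of the windows of 27025 genes. For GCGTG the numbers were 16 windows, or 25%, against 28.2%, and for TTGGCA 12 windows, or 18.8%, against 12.5%. A match of letters is not a measured binding site.

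Among the cytochromes P450, 30 of 114 symbols were members, and 51 had 0 counts. Few genes of 3 subfamilies with many members in liver were detected. Of 20 Cyp2c symbols 1 was a member (Cyp2c23) and 13 were at 0, of 18 Cyp2d symbols 1 was a member (Cyp2d22) and 14 were at 0, and of 11 Cyp3a symbols 1 was a member (Cyp3a13) and 7 were at 0. Cyp1a2, which metabolizes aromatic amines and caffeine, was at 242 ± 10.4 CPM per kb in wild-type mice, and its inducible neighbor Cyp1a1 was at 16.9 ± 2.68. Below Cyp1a2 came Cyp4b1, which activates ipomeanol, at 69.7 ± 9.33 CPM per kb, and Cyp2j6 at 58.3 ± 2.8. Cyp2e1, the ethanol-inducible P450, was at 35.7 ± 9.98 CPM per kb. Of 11 Cyp4f symbols, encoding fatty acid hydroxylases, 7 were members, the highest being Cyp4f15 at 19.9 ± 0.122 CPM per kb.

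Among the other enzymes of the first stage, 6 of 7 Fmo symbols were members. Fmo6 was at 144 ± 11.2 CPM per kb in wild-type mice, Fmo2, the lung form, at 43.6 ± 0.899, Fmo1 at 36.1 ± 5.31, Fmo5 at 27.02 ± 4.97 and Fmo4 at 0.233 ± 0.0187. Of 20 Ces symbols 9 were members, of which Ces1d at 323 ± 11.2 CPM per kb stood above Ces1a at 34.4 ± 3.15. Carboxylesterases cleave ester odorants and drugs.

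The conjugating enzymes were also uneven within their families. Ugt2a1 and Ugt2a2 were at 2212 ± 68.5 and 257 ± 21.9 CPM per kb in wild-type mice, while the highest Ugt1a gene, Ugt1a6a, was at 6.72 ± 1.03 and none of 7 Ugt2b genes, the main hepatic group, was a member (65 counts in all). Ugt8a, which makes the galactolipid of myelin and not a xenobiotic conjugate, was at 4.81 ± 0.435. Of the glutathione S-transferase symbols 21 of 25 were members, among them 7 of 8 Gstm genes. Gstm1, Gstm2, Gsta4 and Gstm5 led, and Gstp1 was at 64.0 ± 1.95 CPM per kb. Among the sulfotransferases Sult1c1 and Sult1d1 were at 420 ± 50.9 and 203 ± 32.5 CPM per kb, Sult1a1, the phenol sulfotransferase, was at 7.45 ± 0.419, and the 8 Sult2a genes, which sulfate steroids in liver, held 3 counts together.

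Members lay close to relatives in the genome: 61 of the 82 had another member of their own family within 1 Mb. The Cyp2 cluster at chr7:25802475-27158668 (GRCm38, GENCODE M21) held 16 Cyp2 genes over 1356 kb. Of these, 8 were members and took 56.4% of the counts of the 82 genes in wild-type mice, and 8 were under the limit, 1 of them at 0. Cyp2g1 (chr7:26808892-26821205) and Cyp2a5 (chr7:26835305-26843548) are adjacent on the plus strand, and Cyp2f2 (chr7:27119909-27133660) lies further along. Between Cyp2a5 and Cyp2f2 lie, besides Cyp2a21-ps, Cyp2a22 with 5 counts and Cyp2a12, a liver P450, with 17 counts in the 9 mice. Cyp2a4, a steroid hydroxylase that differs from Cyp2a5 at few bases, was at 15.5 ± 0.474 CPM per kb in wild-type mice against 4556 for Cyp2a5.

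**Figure D2:**
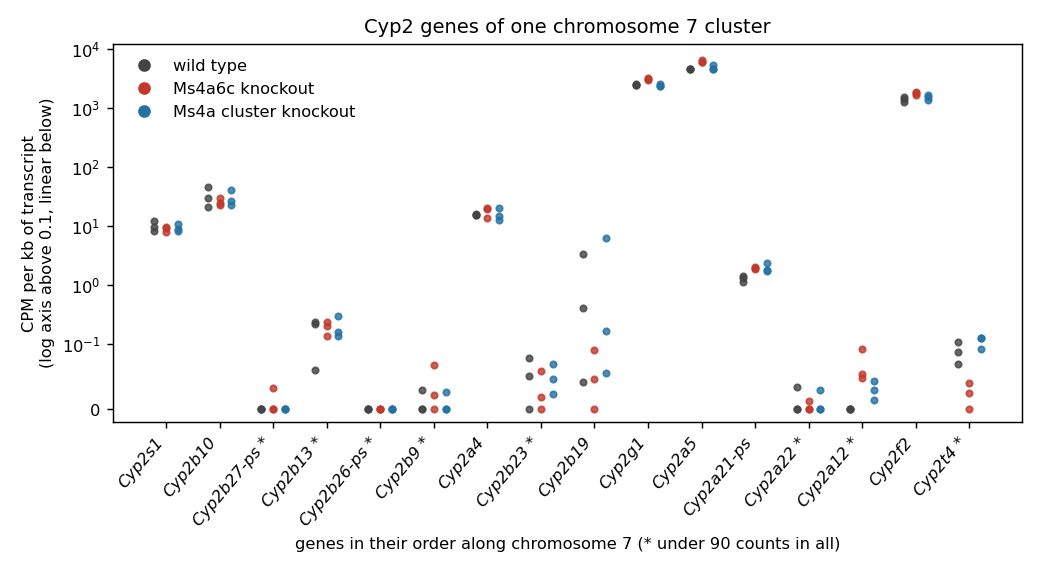
CPM per kb of the 16 Cyp2 genes of the chromosome 7 cluster in their genomic order, on an axis that is logarithmic above 0.1 and linear below; each point is a mouse, and an asterisk marks genes under 90 counts. Cyp2g1, Cyp2a5 and Cyp2f2 stood above 1000 CPM per kb in every mouse, next to genes at or near 0.

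The division of reads among close relatives limits some of these values. Of the 82 genes, 25 had a stretch of at least 300 bases with 90% identity or more in another gene. Cyp2a4 and Cyp2a5 were 98.2% identical over 1739 bases, Cyp4a12b and Cyp4a12a 98.3% over 2396 bases, Gstp1 and Gstp2 98.2% over 707 bases, and the pseudogene Gstm2-ps1 and Gstm1 97.9% over 657 bases. Ugt2a1 and Ugt2a2 share 1771 exonic bases, 68.9% and 69.7% of their exons, and the Ugt1a genes share 1311 bases or more with each other. The values of these genes are the RSEM estimates and are uncertain to that extent.

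Most members varied little between mice. Over the 58 genes with at least 1000 counts, the coefficient of variation across all 9 mice had a median of 12.3% and ranged from 4.44% to 42.9%. Cyp2b19, a P450 known from skin keratinocytes, varied most of the 82, with a coefficient of 190%. It was at 8.89 CPM in wild-type replicate 1 and at 16.8 CPM in Ms4a cluster knockout replicate 2, and at most 1.11 CPM in the other 7 libraries. The 2 high libraries were those rich in nasal gland transcripts. The 4 squamous markers summed to 0.427 and 0.399 CPM in these 2 libraries and to 0.255 to 1.11 CPM in the other 7. None of the 4 reached 90 counts. Krt13 was at 0 in all 9, and Krt4 had 57 counts in all. Cyp2b10, the phenobarbital-inducible P450, was also highest in these 2 mice, at 85.5 and 77.8 CPM, against 39.7 to 57.1 CPM in the other 7. The part of gland tissue in these values was not tested.

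The first comparison asked whether loss of Ms4a6c alone changed the enzyme genes. At a threshold of 0.05 on the adjusted p (edgeR, quasi-likelihood, 23225 genes), 0 of the 82 passed, while 0.435% of all genes tested did. At an unadjusted p under 0.05, 22 of the 82 lay higher in the knockout and 5 lower, against 5.34% and 5.13% of all genes in these directions. In 27 genes all 3 knockout values lay above all 3 wild-type values, and in 4 below, against 9.71% and 8.55% of all genes. The median log2 fold change of the 82 was 0.16, against -0.00 over all genes. DESeq2 passed 7 of the 82 at an adjusted p under 0.05, 6 higher and 1 lower, against 1.49% of all genes.

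The 82 genes summed to 29025, 29894 and 28679 CPM in the 3 wild-type mice and to 34886, 36615 and 34799 CPM in the 3 Ms4a6c knockout mice. Each knockout mouse lay above each wild-type mouse, and the means differed by 21.3%. The difference was 20.99% without the gland-rich wild-type mouse. With plain library sizes in place of TMM, and that mouse kept, it was 37.4%. Before TMM scaling the 82 genes took 2.04% of the library of that mouse and 3.28% and 3.20% of the other wild-type libraries. They took 3.87% to 3.92% of the Ms4a6c knockout libraries, so the plain difference includes the low share of 1 gland-rich library. Cyp2a5, Cyp2g1 and Cyp2f2 together summed to 16029 to 16536 CPM in wild-type and to 20602 to 22221 CPM in knockout mice. The 78 genes other than the leading 4 summed to between 6950 and 7506 CPM in wild-type and between 8012 and 8402 CPM in knockout mice. By family, the mean sum was higher by 28.2% for Cyp, 34.1% for Fmo, 16.1% for Ces and 7.57% for Ugt, with no overlap between genotypes. For Gst it was higher by 10.7% and for Sult by 9.53%, and these 2 families overlapped. Without the gland-rich wild-type mouse the Sult difference was 4.604%. With plain library sizes and that mouse kept, the differences were 45.6% for Cyp, 51.7% for Fmo and 32.4% for Ces. They were 21.4% for Ugt, 24.9% for Gst and 22.6% for Sult, with the same limit as for all 82 genes. These sums were built from genes chosen with results known and carry no test.

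**Figure D3:**
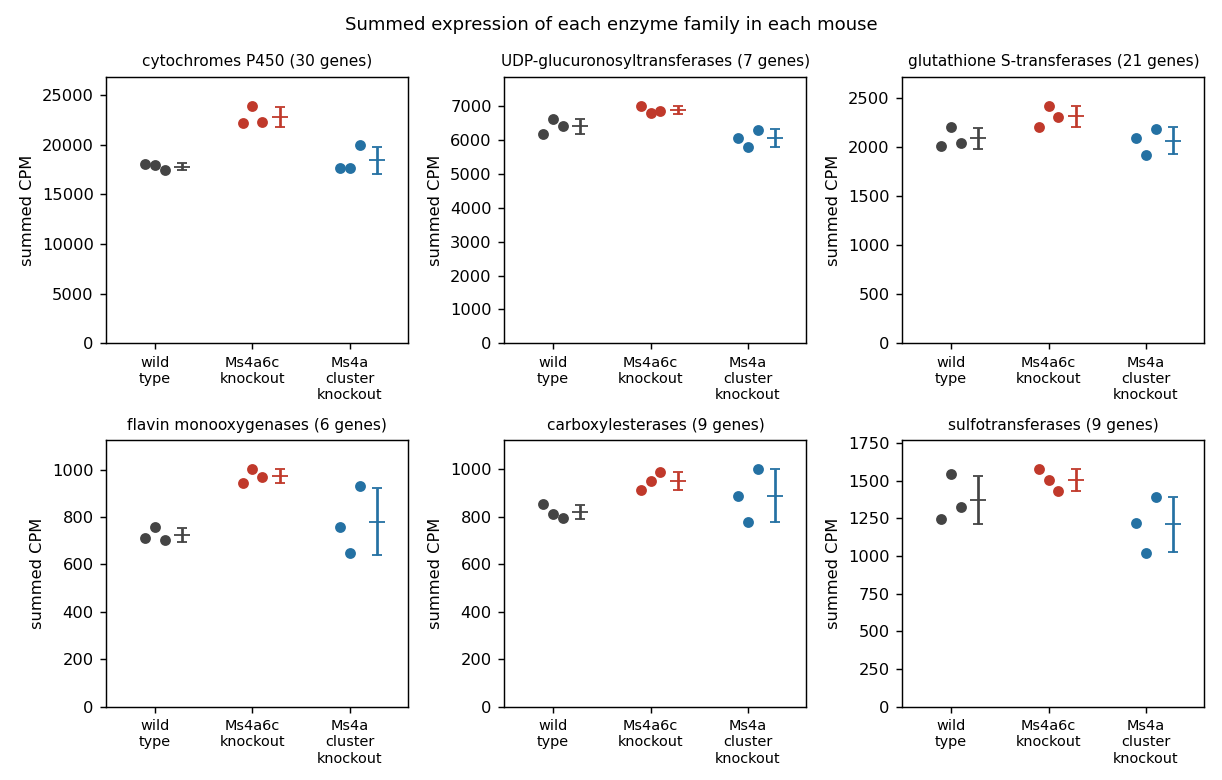
Summed CPM of each enzyme family (axes start at 0); points are mice and the bars beside them the mean ± SD of 3 mice. The Cyp sum was between 17409 and 18031 CPM in wild-type and between 22237 and 23936 CPM in Ms4a6c knockout mice, with the Ms4a cluster knockout mice between 17614 and 19997.

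Among the P450 genes, 10 of 30 lay higher at an unadjusted p under 0.05 and 1 lower, against 5.34% and 5.13% of all genes. Cyp2a5 was at 9103, 9271 and 9138 CPM in wild-type mice and at 11895, 12864 and 11850 CPM in Ms4a6c knockout mice. The 2 sets did not overlap, and the log2 fold change was 0.41 (standard error 0.12), with an adjusted p of 0.228 in edgeR and 6.82e-07 in DESeq2. Its cluster neighbor Cyp2g1 was at 4567, 4678 and 4582 CPM against 5763, 5983 and 5500 CPM. Its log2 fold change was 0.32 (standard error 0.10, edgeR adjusted p = 0.292, DESeq2 adjusted p = 1.37e-05). Cyp2f2 was at 2829, 2588 and 2309 CPM against 3006, 3374 and 3252 CPM, again without overlap, and its log2 fold change was also 0.32 (edgeR adjusted p = 0.384, DESeq2 adjusted p = 0.049). Without the gland-rich libraries 6 of the 82 passed in edgeR, against 1.54% of all genes, among them Cyp2a5 and Cyp2g1 with adjusted p of 0.0125 and 0.0214 but not Cyp2f2.

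Cyp3a13, the only Cyp3a member, was the P450 that lay lower. It was at 63.2, 59.6 and 66.0 CPM in wild-type mice and at 40.5, 40.9 and 38.7 CPM in Ms4a6c knockout mice, with a gap between the genotypes wider than the range of either. The log2 fold change was -0.65 (standard error 0.14), and the adjusted p was 0.0995 in edgeR and 0.00087 in DESeq2. It was 0.00294 without the gland-rich libraries. Cyp4a12b, a fatty acid hydroxylase whose subfamily is known to be higher in males in other organs, was at 95.6, 58.6 and 48.0 CPM in wild-type mice and at 131, 139 and 139 CPM in the knockout (log2 fold change 1.02, standard error 0.28, edgeR adjusted p = 0.226). Its highest wild-type value and its highest Ms4a cluster knockout value, 99.4 CPM, were those of the mice with low Xist, and 2 of the 3 Ms4a6c knockout mice also had low Xist. Without the gland-rich libraries, which left 2 wild-type mice with high Xist, its log2 fold change was 1.36 (edgeR adjusted p = 0.0408). With sex as a covariate it was 0.89 (edgeR adjusted p = 0.12), and the mouse with high Xist in the Ms4a6c knockout was at 131 CPM.

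**Figure D4:**
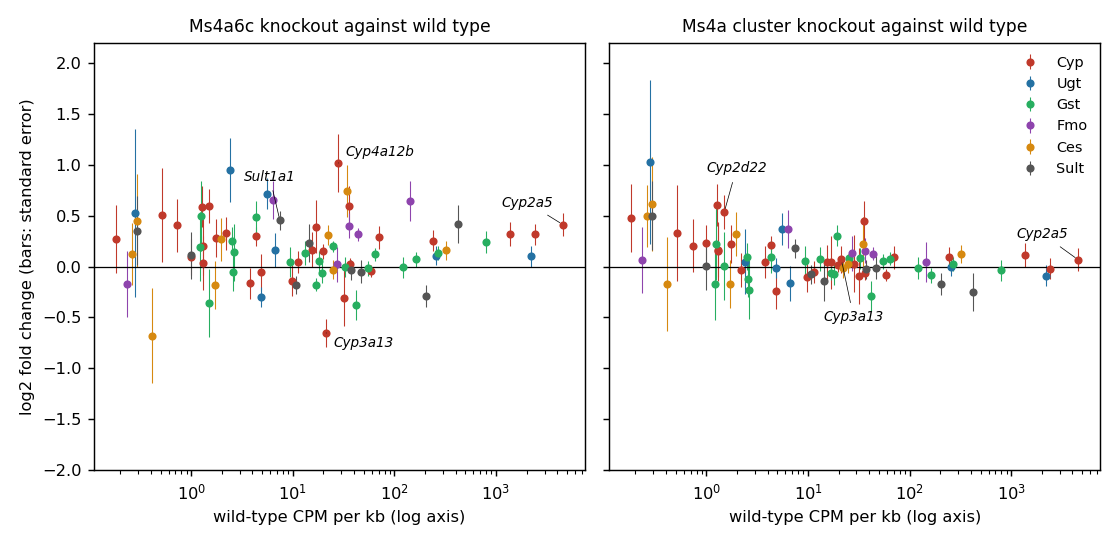
Log2 fold change of the enzyme genes against their wild-type CPM per kb (log axis), with standard errors as bars and 1 color per family; the left panel compares Ms4a6c knockout and the right panel Ms4a cluster knockout mice with the same wild-type mice. Cyp2b19, whose values follow the gland-rich libraries, is left out. On the left 58 of the 82 genes, Cyp2b19 counted, lay above 0 with a median of 0.16, and on the right 52 with a median of 0.05. Of all 23225 genes tested, 11539 and 12012 lay above 0, with medians of -0.0016 and 0.0072.

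Of the monooxygenases other than P450, 4 of 6 lay higher at an unadjusted p under 0.05, against 5.34% of all genes. Fmo2 was at 181, 175 and 175 CPM in wild-type mice and at 200.1, 235 and 227 CPM in Ms4a6c knockout mice (log2 fold change 0.32, standard error 0.07, edgeR adjusted p = 0.0964, DESeq2 adjusted p = 0.00243). Fmo6 was at 275, 306 and 264 CPM against 459, 431 and 429 CPM (log2 fold change 0.64, standard error 0.20, edgeR adjusted p = 0.266). It passed, with an adjusted p of 0.00786, when only these 2 genotypes were fitted. Fmo1, which lies in the same chromosome 1 cluster, had a log2 fold change of 0.40 and no overlap between genotypes (edgeR adjusted p = 0.274). Ces1a was at 63.4, 75.2 and 65.7 CPM against 91.6, 109 and 142 CPM (log2 fold change 0.74, edgeR adjusted p = 0.33). For Ces1d, the main carboxylesterase, the log2 fold change was 0.16 (edgeR adjusted p = 0.573).

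Of the conjugating enzymes, Sult1a1 had the smallest adjusted p of the 82. It was at 10.2, 10.8 and 9.61 CPM in wild-type mice and at 14.8, 13.4 and 13.7 CPM in Ms4a6c knockout mice (log2 fold change 0.46, standard error 0.09, edgeR adjusted p = 0.0932, DESeq2 adjusted p = 0.0482). Ugt1a7c was at 19.3, 15.2 and 20.4 CPM against 29.5, 31.8 and 28.9 CPM (log2 fold change 0.72, standard error 0.16, edgeR adjusted p = 0.116, DESeq2 adjusted p = 0.00305). It shares 51.4% of its exonic bases with Ugt1a6a. Gstt3 was within 49.6 to 49.9 CPM in wild-type mice and within 55.5 to 58.9 CPM in the knockout (log2 fold change 0.20, edgeR adjusted p = 0.209). Lower values were seen for Ugt8a, with a log2 fold change of -0.30, Gstm4 with -0.18, Sult1d1 with -0.29 and Gsto1, an omega-class transferase, with -0.38, at edgeR adjusted p of 0.292, 0.386, 0.386 and 0.402. Without the gland-rich libraries Sult1d1 passed, with a log2 fold change of -0.40 (edgeR adjusted p = 0.0278). Ugt2a1 was at 5501 to 5852 CPM in wild-type and at 5993 to 6210 CPM in knockout mice, without overlap (log2 fold change 0.10, edgeR adjusted p = 0.772).

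**Figure D5:**
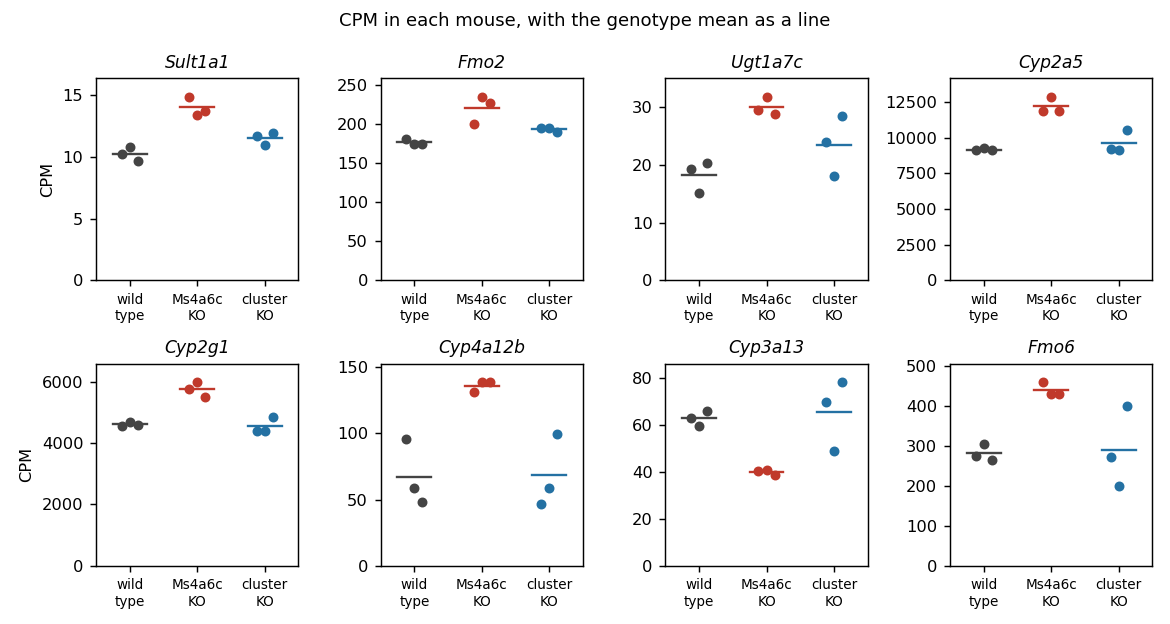
CPM of 8 enzyme genes in each mouse, with the mean of 3 mice as a line and axes that start at 0. The 8 were picked for their small p, so that their separation follows from the choice. In 7 of the 8 the Ms4a6c knockout values lay above all wild-type values, and Cyp3a13, at 38.7 to 40.9 CPM, lay below them. Of all genes tested, 9.71% lay above and 8.55% below in this way.

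The values of other measures over the same mice were as follows. The 8 sustentacular markers summed to 3184 to 3805 CPM in wild-type, 3791 to 4051 CPM in Ms4a6c knockout and 3357 to 3791 CPM in Ms4a cluster knockout mice. Most of each sum was Cbr2, itself a carbonyl reductase and one of the partner genes below. Cbr2 was at 1902 to 2525 CPM in wild-type, 2496 to 2753 CPM in Ms4a6c knockout and 2180 to 2563 CPM in Ms4a cluster knockout mice. Of the 8 sustentacular markers, 0 passed the test in Ms4a6c knockout against wild type, against 0.435% of all genes. In 1 (Sox2) the Ms4a6c knockout values lay above all wild-type values and in 2 (Ermn and Notch2) below them, against 9.71% and 8.55% of all genes. The 5 Bowman gland markers summed to 570 to 691 CPM in wild-type and 596 to 656 CPM in Ms4a6c knockout mice, and none stood clear of the wild type. The 7 mature neuron markers summed to 11103 to 12885 CPM in wild-type and 12152 to 12769 CPM in Ms4a6c knockout mice. Of these 7, 1 (Gng13) passed the test, against 0.435% of all genes. Gng13 lay below all wild-type values, at 347, 371 and 359 CPM in wild-type against 179, 198 and 203 CPM in knockout mice. Stoml3 lay above them all, at 1803, 2148 and 2201 CPM against 2212, 2378 and 2350 CPM. The 4 erythroid markers summed to 655 to 900.4 CPM and 804 to 2310 CPM. The part of cell composition and of blood in the enzyme values was not tested. With sex as a covariate 0 of the 82 passed, against 0.349% of all genes. Without a filter on low counts 2 passed, against 0.584%, and with only these genotypes fitted 2, against 0.452%.

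The second comparison asked the same of the loss of the whole Ms4a cluster. Again 0 of the 82 passed, against 0.0258% of all genes, and DESeq2 passed 0 of the 82, against 0.0775%. The count in edgeR was also 0 without the gland-rich libraries (0.0352% of all genes), with sex as a covariate (0.0129%), without a filter on low counts (0.0257%) and with only these genotypes fitted (0.0182%). At an unadjusted p under 0.05, 5 lay higher and 0 lower, against 2.25% and 2.68% of all genes. The groups did not overlap in 9 genes that lay higher and in 1 that lay lower, against 4.71% and 5.15% of all genes. The 82 genes summed to 28640, 27834 and 31806 CPM in the 3 Ms4a cluster knockout mice, against 28679 to 29894 CPM in wild-type mice. The groups overlapped, and the means differed by 0.777%, by 3.20% without the gland-rich libraries and by 1.81% with plain library sizes.

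The smallest adjusted p was 0.968. Cyp2d22 was at 5.54, 4.49 and 5.23 CPM in wild-type and at 7.21, 9.07 and 6.01 CPM in Ms4a cluster knockout mice (log2 fold change 0.54, standard error 0.17). Gstt1, a theta-class transferase, was at 19.8, 23.5 and 20.7 CPM against 26.8, 29.6 and 22.9 CPM, with overlap. Cyp2a21-ps, Ugt1a7c and Cyp2e1 had log2 fold changes of 0.60, 0.37 and 0.45. On the other side Gsto1, Sult1c1, Cyp2j12, Sult1d1 and Cyp2j6 had log2 fold changes of -0.29, -0.25, -0.24, -0.17 and -0.08. Most of the 5 genes named as higher were also higher in Ms4a6c knockout against the same wild-type mice. There the log2 fold changes of Cyp2d22, Gstt1, Cyp2a21-ps, Ugt1a7c and Cyp2e1 were 0.59, -0.06, 0.59, 0.72 and 0.59. Cyp2a5 was at 9197, 9118 and 10515 CPM in the cluster knockout (log2 fold change 0.07, standard error 0.12, edgeR adjusted p = 0.999), and Cyp3a13 was at 70.0, 49.0 and 78.4 CPM (log2 fold change 0.07, standard error 0.14, edgeR adjusted p = 1).

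The 2 knockouts were also compared directly. Of the 82 genes, 0 passed in edgeR, against 0.443% of all genes, and DESeq2 passed 5, of which 1 was higher with the cluster deleted, against 1.17% of all genes. Without the gland-rich libraries 2 passed in edgeR, against 0.647%, and without a filter on low counts 1, against 0.498%. With sex as a covariate none passed, against 0.349%, nor with only these genotypes fitted, against 0.329%. At an unadjusted p under 0.05, 4 lay higher and 12 lower in the cluster knockout, against 4.68% and 4.7% of all genes. The groups did not overlap in 6 genes that lay higher and 16 that lay lower, against 7.86% and 8.09%. The summed CPM of the 82 genes was lower by 17.0%, and each cluster knockout mouse lay below each Ms4a6c knockout mouse.

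Cyp3a13 had the smallest adjusted p, 0.0672 in edgeR and 0.000142 in DESeq2, and its log2 fold change was 0.72 (standard error 0.14), higher in the cluster knockout. It passed in edgeR, as the only one of the 82, when the gland-rich Ms4a cluster knockout replicate 2 was left out. Cyp2g1 and Cyp2a5 both had log2 fold changes of -0.34 (edgeR adjusted p = 0.317 and 0.372, DESeq2 adjusted p = 1.23e-06 and 0.000104). Sult1c1 was at 922, 869 and 823 CPM in the Ms4a6c knockout and at 531, 395 and 727 CPM in the cluster knockout, a log2 fold change of -0.66 (edgeR adjusted p = 0.279, DESeq2 adjusted p = 0.0103). Fmo6 had one of -0.60 and passed in edgeR only when Ms4a cluster knockout replicate 3, whose 400.4 CPM was nearest the Ms4a6c knockout, was left out. Cyp4a12b had a log2 fold change of -0.99 (edgeR adjusted p = 0.283). Gstt1, Ugt8a and Gstm4 lay higher in the cluster knockout by 0.36, 0.29 and 0.11 on the log2 scale, and Ces1f lay lower, at -0.32. The log2 fold change of 5.23 for Cyp2b19 rests on the gland-rich replicate 2 at 16.8 CPM, since the other 2 cluster knockout mice were at 0.15 and 0.451 CPM.

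The enzymes work with partners that the symbol rule does not cover, and 73 such genes were examined, of which 72 could be tested. None passed in the reported edgeR fit in any of the 3 comparisons, against 0.0258%, 0.435% and 0.443% of all genes. In Ms4a6c knockout against wild type, Ahr and Hmox1 passed in edgeR without a filter on low counts, against 0.584% of all genes. Abcc5, Ahr and Alas1 passed with only these genotypes fitted (0.452%), and Ahr and Abcc5 without the gland-rich libraries (1.54%). With sex as a covariate none passed, against 0.349%, nor with RLE scaling, edgeR's default filter or a replicate block. With single mice left out, Adh7 (without wild-type replicate 3) or Hmox1 (without Ms4a6c knockout replicate 1) passed. For fits with a single mouse left out, no share of all genes is given, so these cannot be set against a general rate. In Ms4a cluster against Ms4a6c knockout, Papss2 passed without a filter (0.498% of all genes), and Ahr without the gland-rich libraries (0.647%) or without Ms4a cluster knockout replicate 2. Papss2 and Abcc5 passed without replicate 3. DESeq2 passed Papss2, Ahr and Pgrmc1, against 1.17% of all genes. With sex as a covariate none passed, against 0.349%. In Ms4a6c knockout against wild-type mice, 12 of the 72 lay higher and 2 lower at an unadjusted p under 0.05, against 5.34% and 5.13% of all genes, and DESeq2 passed 7, against 1.49%. Of the 72, 8 were genes of electron transfer to P450 enzymes and of heme, their prosthetic group. In 7 of these all Ms4a6c knockout values lay above the wild type and in 0 below, against 9.71% and 8.55% of all genes. Por, the P450 reductase, was at 778, 805 and 766 CPM in wild-type and at 945, 991 and 931 CPM in Ms4a6c knockout mice (log2 fold change 0.29, standard error 0.10, edgeR adjusted p = 0.325). Alas1, the first enzyme of heme synthesis, was at 236, 237 and 217 CPM against 293, 303 and 293 CPM (log2 fold change 0.36, standard error 0.09, edgeR adjusted p = 0.149). Hmox1, which degrades heme, was at 17.1 to 17.6 CPM against 21.9 to 28.8 CPM (log2 fold change 0.60, edgeR adjusted p = 0.0627). Pgrmc1, a heme-binding partner of P450 enzymes and the gene of this group with the highest level per kb, was at 747 to 770 CPM against 825 to 839 CPM.

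Of 26 other oxidoreductases and hydrolases, 5 lay clear above the wild type and 3 clear below in the Ms4a6c knockout, against 9.71% and 8.55% of all genes. Cbr2, a carbonyl reductase and the highest of them, was at 1902 to 2525 CPM in wild-type and at 2496 to 2753 CPM in knockout mice, with overlap. Of 19 genes for cofactors and other transferases, 5 lay clear above and 1 below. Among them Papss2, which makes the sulfate donor of the sulfotransferases, was at 177, 212 and 198 CPM against 272, 254 and 273 CPM (log2 fold change 0.44, standard error 0.11, edgeR adjusted p = 0.161), and Ugdh, which makes the glucuronic acid donor, had a log2 fold change of 0.21 (edgeR adjusted p = 0.364). Inmt, a methyltransferase and the highest of this group, was at 305 to 338 CPM in wild-type and 285 to 330.1 CPM in knockout mice.

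Of the 10 receptors and regulators tested, 0 lay clear above the wild type and 1 clear below, against 9.71% and 8.55% of all genes. The gene clear below was Ahr, the aryl hydrocarbon receptor that induces Cyp1a1 and Cyp1a2. It was at 26.7, 29.3 and 30.4 CPM in wild-type and at 16.9, 18.1 and 20.3 CPM in Ms4a6c knockout mice. Its log2 fold change was -0.65 (standard error 0.12, edgeR adjusted p = 0.0634), and it passed with DESeq2 and in the other fits named above. In the same mice Cyp1a1 was at 38.5 to 53.0 CPM in wild-type and at 56.7 to 62.7 CPM in knockout mice (log2 fold change 0.39, edgeR adjusted p = 0.634), and Cyp1a2 at 451 to 491 CPM and 544 to 577 CPM (log2 fold change 0.26, edgeR adjusted p = 0.403). In the Ms4a cluster knockout Ahr was at 30.8, 22.03 and 27.5 CPM. Nfe2l2, the regulator of the antioxidant response and the highest of this group, was at 213 to 227 CPM in wild-type and 207 to 225 CPM in Ms4a6c knockout mice. The receptors Nr1i2 and Nr1i3, which induce hepatic P450 genes, were at or below 0.995 CPM in every mouse, and Hnf4a had too few counts to be tested. Of 9 transporters, 4 lay clear above the wild type and 0 clear below, against 9.71% and 8.55% of all genes. Among the 4 was Abcc5, an exporter of organic anions, at 121 to 131 CPM against 170 to 177 CPM (log2 fold change 0.45, edgeR adjusted p = 0.164). Abcc1, the transporter with the highest level, was also among them, at 221 to 239 CPM against 239.7 to 255 CPM.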

How the data were processed

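RNA-seq was performed on the main olfactory epithelium of 9 mice, 3 per genotype, with a directional library kit on poly-A RNA. The authors deposited expected counts per gene. Per the submitters' processing notes and the methods of the study, reads were aligned with STAR 2.6.1 and quantified with RSEM 1.3.1 on mm10 with GENCODE M25, and the authors used R 4.0.0 and DESeq2 1.30.1. RSEM divides reads among genes that share sequence, and a library held from about 13954600 to 21987200 expected counts.

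Expected counts were rounded to whole numbers and fitted with edgeR 4.0.16 in R 4.3.3 (quasi-likelihood test, TMM scaling, all 9 mice, no covariate) for the 23225 genes with at least 10 counts in all, with Benjamini-Hochberg adjustment over all of them and a threshold of 0.05. CPM were TMM-scaled. Lengths and positions came from GENCODE M21 (GRCm38), and near-identical transcripts were found with megablast of BLAST 2.17.0. Self-tests on simulated data called 96 of 100 genes given a 4-fold and 85 of 100 given a 2-fold change in the comparison of Ms4a cluster knockout with wild type, on 22787 genes. They also called 8 of 22587 unchanged genes. The changed genes were drawn from those with higher counts and no smaller change was simulated, so the rate for smaller changes is not known. With 3 mice against 3, an exact permutation test cannot go below p = 0.1, so none was used for single genes.

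The enzyme genes and the lists were chosen with earlier results of these data known. Genes were named as the 15 highest in wild type, the 2 highest of each family, the 5 with the smallest p in each direction of each comparison, the 3 on either side of the count limit and the highest of each partner group. Others were named after their values were seen, as relatives or partners of these: Cyp2j6 (for its level), Cyp1a1, Cyp2b10, Cyp2a4, Cyp2a12, Cyp2a22, Cyp2c23, Cyp4f15, Fmo1, Fmo5, Gstp1, Ugt1a6a, Por, Alas1, Hmox1, Papss2, Ugdh, Adh7, Ahr, Nr1i2, Nr1i3 and Abcc5. The values of 1 member are not reported here. Alternatives were RLE scaling, edgeR's default filter, no filter, 2 genotypes only, a replicate block, DESeq2 1.42.0, a stricter threshold and each mouse left out.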

Additional observations from a re-analysis of the deposited data

How the results depend on the processing

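Of the 82 genes, the number that passed in Ms4a6c knockout against wild type was 0 in the reported fit. It was 7 with DESeq2, 2 without a filter on low counts (Cyp3a13 and Ugt1a7c), 2 with only these genotypes fitted (Cyp3a13 and Fmo6), and between 0 and 1 with each mouse left out (1, Fmo2, without Ms4a6c knockout replicate 1). In Ms4a cluster against Ms4a6c knockout it was 5 with DESeq2, 1 without a filter and between 0 and 1 with each mouse left out (1, Cyp3a13, without Ms4a cluster knockout replicate 2, and 1, Fmo6, without replicate 3). With both gland-rich libraries left out, an alternative chosen after seeing the data, as was sex as a covariate, the numbers were 6 and 2. In Ms4a cluster knockout against wild type it was 0 under all of these. For the fits with a single mouse left out no share of all genes is given, so their counts cannot be set against a general rate. The cause of the differences between settings was not tested. The log2 fold changes of Cyp2a5 and Cyp3a13 in that comparison were both 0.07 and turned to -0.00255 and -0.074 without Ms4a cluster knockout replicate 3, and ranged up to 0.10 and 0.24, without replicate 2, over the mice left out. Of 882 alternative values for named genes, 832 kept their direction and side of the threshold. Another 48 kept their direction and came to pass, and the 2 just given turned. The values cover 63 pairs of a gene and a comparison, many picked for a small p, so that direction was part of the choice. None of the pairs passed in the reported fit, so to keep the side of the threshold was to remain without a pass. With plain library sizes, the wild-type mean sum was 17255 CPM for Cyp and 28392 CPM for all 82 genes, against 17793 and 29199. With any count above 0 as the limit, 133 genes would enter.

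A fit with a replicate block passed 0 of the 82 in each comparison. The labels do not say that a number marks a shared litter or day, and over 16537 genes the deviations of same-numbered mice correlated between -0.54 and 0.11, so the numbers were not taken as pairs. Depth limits the low genes: 3 counts in a library corresponded to 0.136 to 0.215 CPM, a floor that covers counting error only.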
